A study of Mus musculus with 16 samples.

Results

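Genes of mitosis and S phase were followed in CD11b+ cells sorted from MC38-Ova tumours, with the members taken as a list of 46 genes that copy DNA or divide the cell, matched by symbol, all 46 of which were among the 24421 genes of the count table. MC38-Ova is a mouse colon adenocarcinoma line that carries ovalbumin, grown under the skin of adult C57BL/6 mice with the Kaede transgene, untreated in every group. Kaede is a protein that violet light turns from green to red. The tumour was lit once, so that Kaede-red cells were in the tumour at that moment and Kaede-green cells are taken to have arrived from outside since then. After 24h or 72h, viable cells were sorted that carried CD45, CD11b and Kaede and lacked TER119 and NK1.1, giving 4 libraries each of Kaede-green 24h, Kaede-red 24h, Kaede-green 72h and Kaede-red 72h. A Kaede-red cell had therefore been in the tumour for at least the time since lighting, and a Kaede-green cell, where conversion was complete, for less than that time. The study reports conversion of nearly all host cells in the tumour but not of every one. A few Kaede-green cells could therefore have been there before lighting. Converted cells also kept some green signal, the sort took every CD11b+ cell and not macrophages alone, and the labels give no animal age.

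Dividing cells pass through G1, S, G2 and M phases in turn. In G1 the MCM helicase is loaded on replication origins, in S phase ribonucleotide reductase and its partners supply nucleotides while DNA is copied, and in mitosis cyclin-dependent kinase 1 starts the assembly of the spindle that parts the chromosomes. The transcripts come in waves: the genes for licensing and DNA synthesis are driven by E2F factors from late G1, and most mitotic genes peak in G2 and M under the MuvB complexes, which bind a short promoter element called the CHR, often beside CCAAT boxes. Blood monocytes have mostly left the cell cycle, whereas tissue macrophages can divide where they live, and RNA of these genes is widely used as a sign of dividing cells. The members were divided by role into 13 mitotic regulators, 15 spindle and chromosome genes, 11 origin licensing genes and 7 DNA synthesis genes, and the first 2 roles together are called the 28 mitotic members below.

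Total counts per library ranged from 3216858 to 15423085. The ribosomal RNA precursor Rn45s took 79.0 to 93.4% of the counts in Kaede-green and 55.8 to 84.9% in Kaede-red libraries. Outside Rn45s, 468092 to 912689 counts remained in a Kaede-green and 758192 to 5472477 in a Kaede-red library. The members together had 317 to 976 counts per Kaede-green and 1050 to 7661 per Kaede-red library, with 37 to 46 and 45 to 46 members detected. Values below are CPM, counts brought to a common library total with edgeR's TMM factors, which bring the bulk of the genes to the same level, and a log2 fold change is therefore relative to the median gene. Scaling by library size alone, which leaves Rn45s in the total, raised the median of all genes from Kaede-green to Kaede-red by 2.20 on the log2 scale over both times. RNA for the markers that define the sort was present in every library, with at least 59.5 CPM for Itgam, which encodes CD11b, and at least 73.6 CPM for Ptprc, which encodes CD45. Libraries of a group are tumours of separate mice according to the study, although no source states whether a Kaede-green and a Kaede-red library with the same number share a tumour.

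Levels per kilobase of exon were set by a few members. Hmgb2, a chromatin protein that bends DNA and is abundant in dividing cells, had the highest, with 9.98 ± 4.12 CPM per kb (mean ± SD over the 16 libraries), followed by Pcna, the sliding clamp of DNA polymerase, with 6.81 ± 1.60 CPM per kb. Each of the other 44 members lay between 0.120 CPM per kb for Tk1 and 3.29 CPM per kb for Cks2. Top2a, the topoisomerase that untangles sister chromatids, was at 1.93 and Mki67, the coat protein of mitotic chromosomes known as Ki-67, at 1.37 CPM per kb. Of the 46 members, 43 passed the filter on low counts and were tested, and Ccnb2, Nusap1 and Ccne1 did not pass. Only 7 members had at least 10 counts in every library, and Plk1, Nusap1 and Tk1 had 3 counts or fewer over all of the Kaede-green 24h libraries, so that no fold change at 24h is given for them. Exons of 13 members overlap another gene (for example Ccne2 with Ints8 and Mcm7 with Cops6) and 5 have a named pseudogene or related copy, and reads could have been split or shared between these. Whether the counting used strand is not given in the sources used here.

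Promoters of the members fell into classes by the elements just described. The RefSeq promoter table (GRCm38.p6, 250 bases before to 50 after each gene's start, 27025 genes) held 38 of the 46 members, of which 23 were mitotic and 8 licensing members. The CHR, searched on both strands as TTTGAA or TTTAAA, was found in 20 of the 23 mitotic promoters (87.0%) and in 30.6% of all promoters, and the CCAAT box in 21 (91.3%) and 41.1%. Both elements together were present in 19 of the 23 (82.6%), in 2 of the 8 licensing promoters (25%) and in 12.2% of all. The E2F core, searched on both strands in the first form TTTGGCG, the second form TTTCGCG, the third form TTTCCCG and the fourth form TTTGCCG, was found in 6 of the 8 licensing promoters (75.0%), 4 of the 23 mitotic promoters (17.4%) and 7.65% of all. A match is a description of letters and not of a bound site. The 120 bases before the start of 4 members are printed 5′ to 3′ on the strand of the gene, with CHR, CCAAT and E2F core letters of either strand in capitals, to show the pair of classes. Cdk1, at chr10:69352913-69353032 on the minus strand, has TTTGAA with its first base 71 and 15 bases before the start, and CCAAT boxes on the opposite strand (read as ATTGG).
Cdk1: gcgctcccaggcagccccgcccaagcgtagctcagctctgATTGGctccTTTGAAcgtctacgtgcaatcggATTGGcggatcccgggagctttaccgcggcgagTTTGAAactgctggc
Hmgb2, at chr8:57511723-57511842 on the plus strand, has 1 CHR between its CCAAT boxes.
Hmgb2: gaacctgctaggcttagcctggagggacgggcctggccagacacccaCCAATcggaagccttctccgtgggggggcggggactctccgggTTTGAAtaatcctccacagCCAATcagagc
Top2a, at chr11:99024190-99024309 on the minus strand, has its CHR on the opposite strand, read as TTCAAA, and 3 CCAAT boxes.
Top2a: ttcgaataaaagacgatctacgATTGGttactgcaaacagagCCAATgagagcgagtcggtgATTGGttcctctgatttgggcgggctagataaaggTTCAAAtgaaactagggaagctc
Mcm6, a subunit of the MCM helicase at chr1:128359706-128359825 on the minus strand, has E2F cores and no CHR, and was chosen for printing after its values were seen.
Mcm6: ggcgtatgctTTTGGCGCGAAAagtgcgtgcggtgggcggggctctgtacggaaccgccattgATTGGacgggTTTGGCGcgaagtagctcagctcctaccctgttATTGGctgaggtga

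The comparison of colours sets cells that had stayed in the tumour against cells that had arrived since. At 72h, RNA of 5 of the 26 tested mitotic members and of 2 of the 7 DNA synthesis members was lower in Kaede-red than in Kaede-green cells relative to the median gene, and 0 of the 6 subunits of the MCM helicase was called. The calls were the checkpoint kinase gene Bub1b, the spindle and chromosome genes Tpx2, Cenpe, Top2a and Hmgb2, and the nucleotide genes Rrm2 and Dut, with log2 fold changes from -1.60 for Cenpe to -0.86 for Top2a. All 7 were lower in Kaede-red cells, and 0 of the 43 tested members was called higher (quasi-likelihood test of edgeR, Benjamini-Hochberg adjustment over 9642 genes, adjusted p under 0.05). An unadjusted p under 0.05 was found for 14 of the 43 members, beside 2878 of the 9642 genes. DESeq2 called 13 members, of which 12 were lower and 1, Mcm4, was higher, and its share over all genes is not given here. These 7 calls were 16.3% of the tested members, beside 16.8% of all genes called in either direction, 8.07% higher and 8.76% lower. The median log2 fold change of the members was -0.66, and 34 of them (79.1%) were below 0, beside a median of 0.03 and 48.1% below 0 over all genes tested. In a bulk library, fewer dividing cells and less RNA of these genes per cell cannot be told apart. Under scaling by library size alone the members' median was 1.41 at 72h, with 25 members called higher, while that of all genes was 2.04. When the Rn45s share was added as a covariate, 0 members were called, and their median was -0.18 beside 0.04 for all genes. At 72h that share was 79.0 to 91.0% in Kaede-green and 55.8 to 73.8% in Kaede-red libraries. Because it separates the colours, this fit cannot tell the share from colour, and a loss of calls in it has no clear reading.

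**Figure D1:**
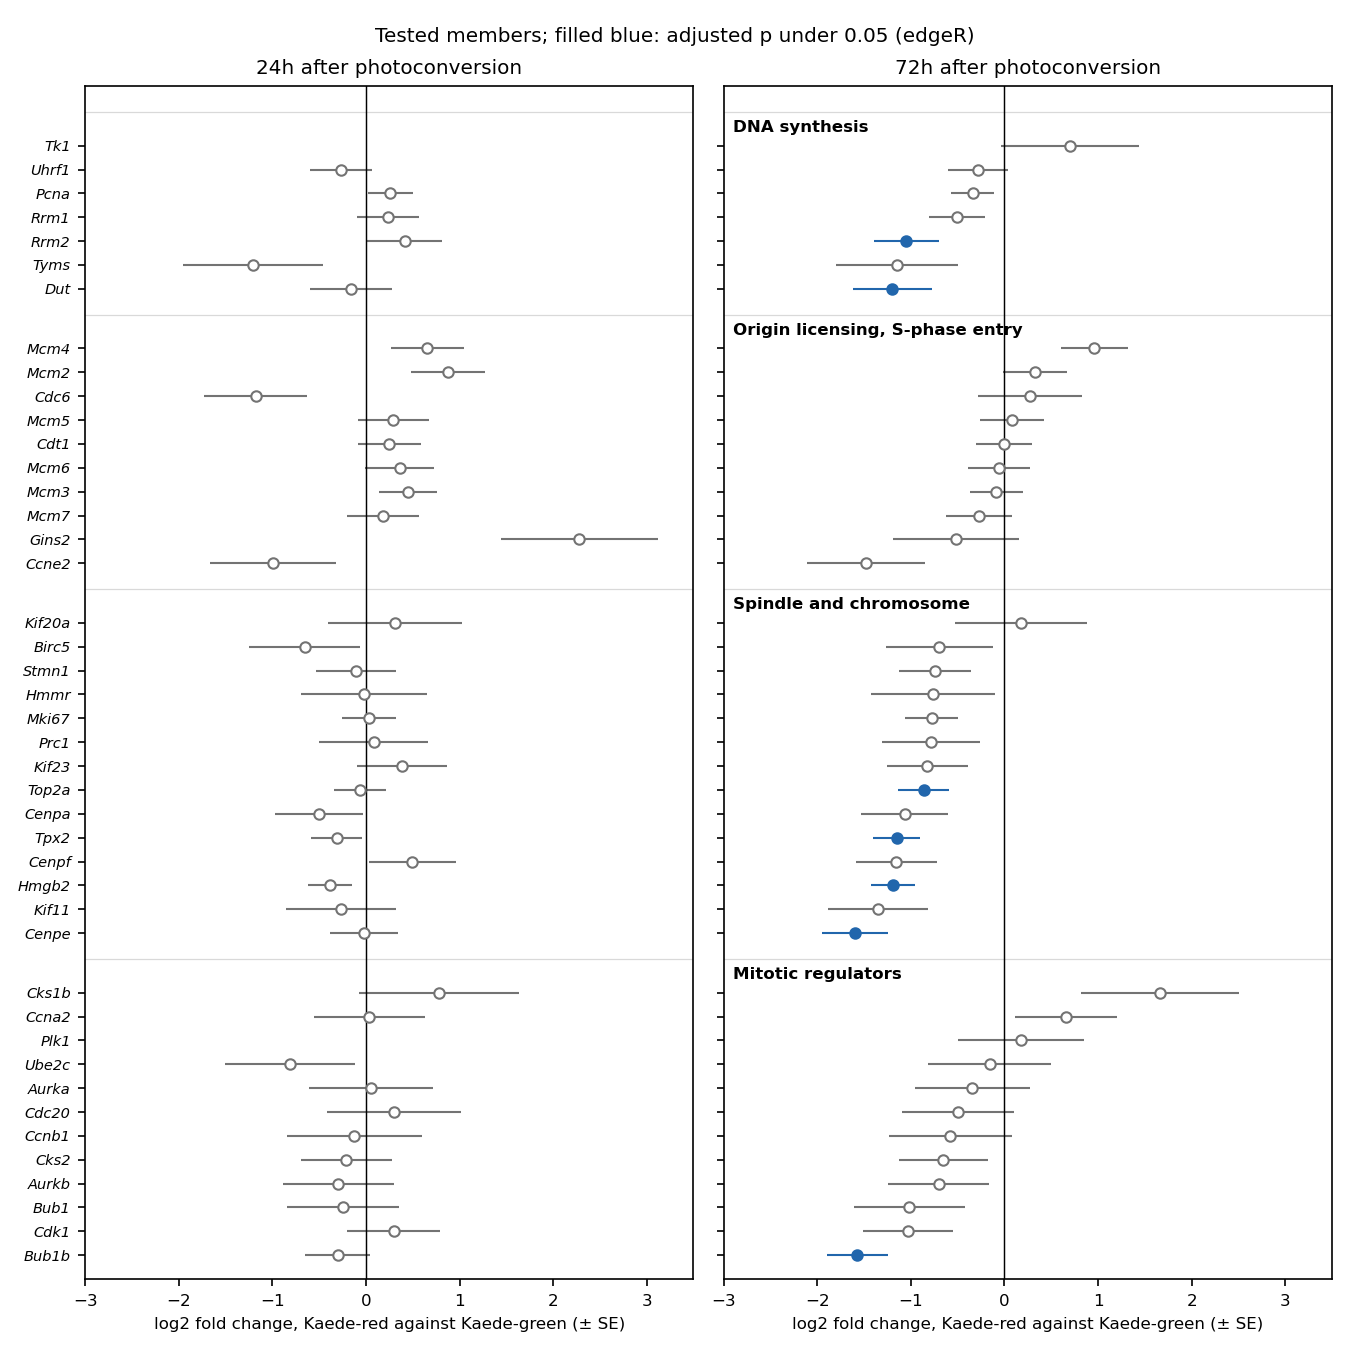
Log2 fold change of Kaede-red over Kaede-green cells (x axis, bars ± 1 SE) of the 43 tested members, 1 row per gene and grouped by role, at 24h and at 72h, with filled blue points for an adjusted p under 0.05 and no point at 24h for Plk1 and Tk1. All 7 filled points are at 72h and to the left of 0, while the points of Mcm2 to Mcm7 at 72h lie on both sides of it. Values are relative to the median gene, and scaling by library size alone would shift the median of all genes to the right by 2.33 at 24h and by 2.04 at 72h.

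Among the mitotic regulators, Bub1b, a kinase of the checkpoint that holds cells in mitosis until every chromosome is attached, had 9.47, 9.75, 10.9 and 7.78 CPM among Kaede-green and 2.65, 3.27, 1.81 and 4.43 CPM among Kaede-red libraries at 72h, by replicate number, which carries no order. The Kaede-red libraries were all below the Kaede-green ones. The log2 fold change was -1.57 (SE 0.33, adjusted p = 0.000798). At 24h the values were 7.24, 6.95, 4.08 and 12.2 CPM among Kaede-green and 3.68, 4.13, 6.70 and 9.48 CPM among Kaede-red libraries, and the groups overlapped (log2 fold change -0.30, SE 0.35, adjusted p = 0.682, the form in which values stand in parentheses from here on).
Cdk1, the kinase that starts mitosis, was low throughout, each Kaede-green library holding 3 to 10 counts of it. It had 2.19, 1.83, 2.43 and 2.59 CPM among Kaede-green and 1.44, 0.906, 0.906 and 1.11 CPM among Kaede-red libraries at 72h, where the groups did not overlap, yet it was not called (-1.03, SE 0.48, adjusted p = 0.146). At 24h it had 3.90, 1.23, 0.766 and 4.08 CPM among Kaede-green and 2.10, 2.67, 1.99 and 4.38 CPM among Kaede-red libraries, which overlapped.
The other tested regulators were not called at 72h. Bub1, the partner of Bub1b at the kinetochore, had a log2 fold change of -1.02 and Aurkb, the kinase that corrects wrong attachments, -0.70. The cyclins, which activate the kinase, had -0.58 for Ccnb1 and 0.66 for Ccna2. Cdc20, which activates the ubiquitin ligase that ends mitosis, was at -0.50, and the values of the remaining regulators ran from -0.66 for Cks2 to 1.66 for Cks1b. Of the 12 tested regulators, 9 were below 0, with a median of -0.54.

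The spindle and chromosome genes held 4 of the 7 calls, with 13 of 14 below 0 and a median of -0.84. Tpx2, which nucleates spindle microtubules and activates Aurora A, had 13.8, 7.92, 10.2 and 9.08 CPM among Kaede-green and 4.68, 4.25, 4.83 and 4.62 CPM among Kaede-red libraries at 72h. All of the Kaede-red libraries lay below all of the Kaede-green libraries (-1.15, SE 0.25, adjusted p = 0.00150). At 24h the 4 Kaede-green libraries had 7.80, 5.31, 7.91 and 9.79 CPM and the 4 Kaede-red libraries 4.64, 5.83, 7.97 and 6.64 CPM, and the groups overlapped.
Cenpe, the kinesin that carries chromosomes to the spindle equator, had the largest fall among the calls. It had 19.3, 17.97, 5.59 and 13.2 CPM among Kaede-green and 3.36, 3.82, 5.28 and 5.86 CPM among Kaede-red libraries at 72h. Kaede-green 72h replicate 3 reached down into the Kaede-red range, and the other 3 Kaede-green libraries stood above it (-1.60, SE 0.35, adjusted p = 0.00144). At 24h Cenpe had 8.91, 4.50, 10.5 and 18.4 CPM among Kaede-green and 5.43, 7.53, 14.3 and 14.6 CPM among Kaede-red libraries, which overlapped.
Hmgb2, whose promoter is printed above, had 41.2, 63.96, 29.7 and 23.6 CPM among Kaede-green and 14.1, 19.1, 18.7 and 17.2 CPM among Kaede-red libraries at 72h. The Kaede-red libraries were close together and below every Kaede-green library, of which replicate 2 stood highest (-1.19, SE 0.23, adjusted p = 0.000450). At 24h the values were 28.97, 41.7, 36.5 and 35.1 CPM among Kaede-green and 21.6, 24.2, 32.8 and 31.01 CPM among Kaede-red libraries, with Kaede-red replicates 1 and 2 below all Kaede-green libraries and the other two among them.

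Top2a had 17.9, 25.9, 16.5 and 22.3 CPM among Kaede-green and 10.4, 9.33, 13.4 and 12.6 CPM among Kaede-red libraries at 72h, without overlap (-0.86, SE 0.27, adjusted p = 0.0240). This call was lost when Kaede-green 72h replicate 2 or 4 or Kaede-red 72h replicate 1 or 2 was left out, with adjusted p-values up to 0.0845. At 24h, Top2a was low in replicates 1 and 2 and high in replicates 3 and 4 of each colour, with 11.1, 12.7, 25.8 and 26.1 CPM among Kaede-green and 11.9, 13.1, 28.6 and 21.2 CPM among Kaede-red libraries.
Mki67 had 14.2, 18.6, 13.4 and 14.8 CPM among Kaede-green and 7.57, 7.30, 8.45 and 11.996 CPM among Kaede-red libraries at 72h. The groups did not overlap, and the difference was just short of the threshold (-0.78, SE 0.28, adjusted p = 0.0554). At 24h it had 9.47, 12.7, 19.6 and 18.8 CPM among Kaede-green and 8.76, 9.84, 21.5 and 23.2 CPM among Kaede-red libraries, which overlapped fully.
Birc5, the survivin subunit of the Aurora B complex, had between 1 and 56 counts in a library. At 72h it had 0.364, 3.35, 2.19 and 1.30 CPM among Kaede-green and 1.33, 1.41, 0.453 and 1.07 CPM among Kaede-red libraries, and at 24h 5.01, 1.23, 1.79 and 2.45 and 0.613, 1.58, 2.72 and 1.61 CPM. The groups overlapped at both times, and no comparison called it.
Kif11, the motor that pushes the spindle poles apart, Cenpf and Cenpa, a pair of centromere proteins, did not overlap at 72h either but were not called, with log2 fold changes of -1.35 (adjusted p = 0.0769), -1.16 (adjusted p = 0.0620) and -1.06 (adjusted p = 0.114). The remaining spindle and chromosome members were not called and ran from -0.82 for Kif23 and -0.78 for Prc1, which build the midzone where the cell divides, to 0.18 for Kif20a. In all, 10 of the 43 members (23.3%) had all Kaede-red below all Kaede-green libraries at 72h, beside 9.52% of all genes, and 7 of these 10 were spindle and chromosome genes. In the other direction the count was 1, Mcm4, beside 13% of all genes.

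**Figure D2:**
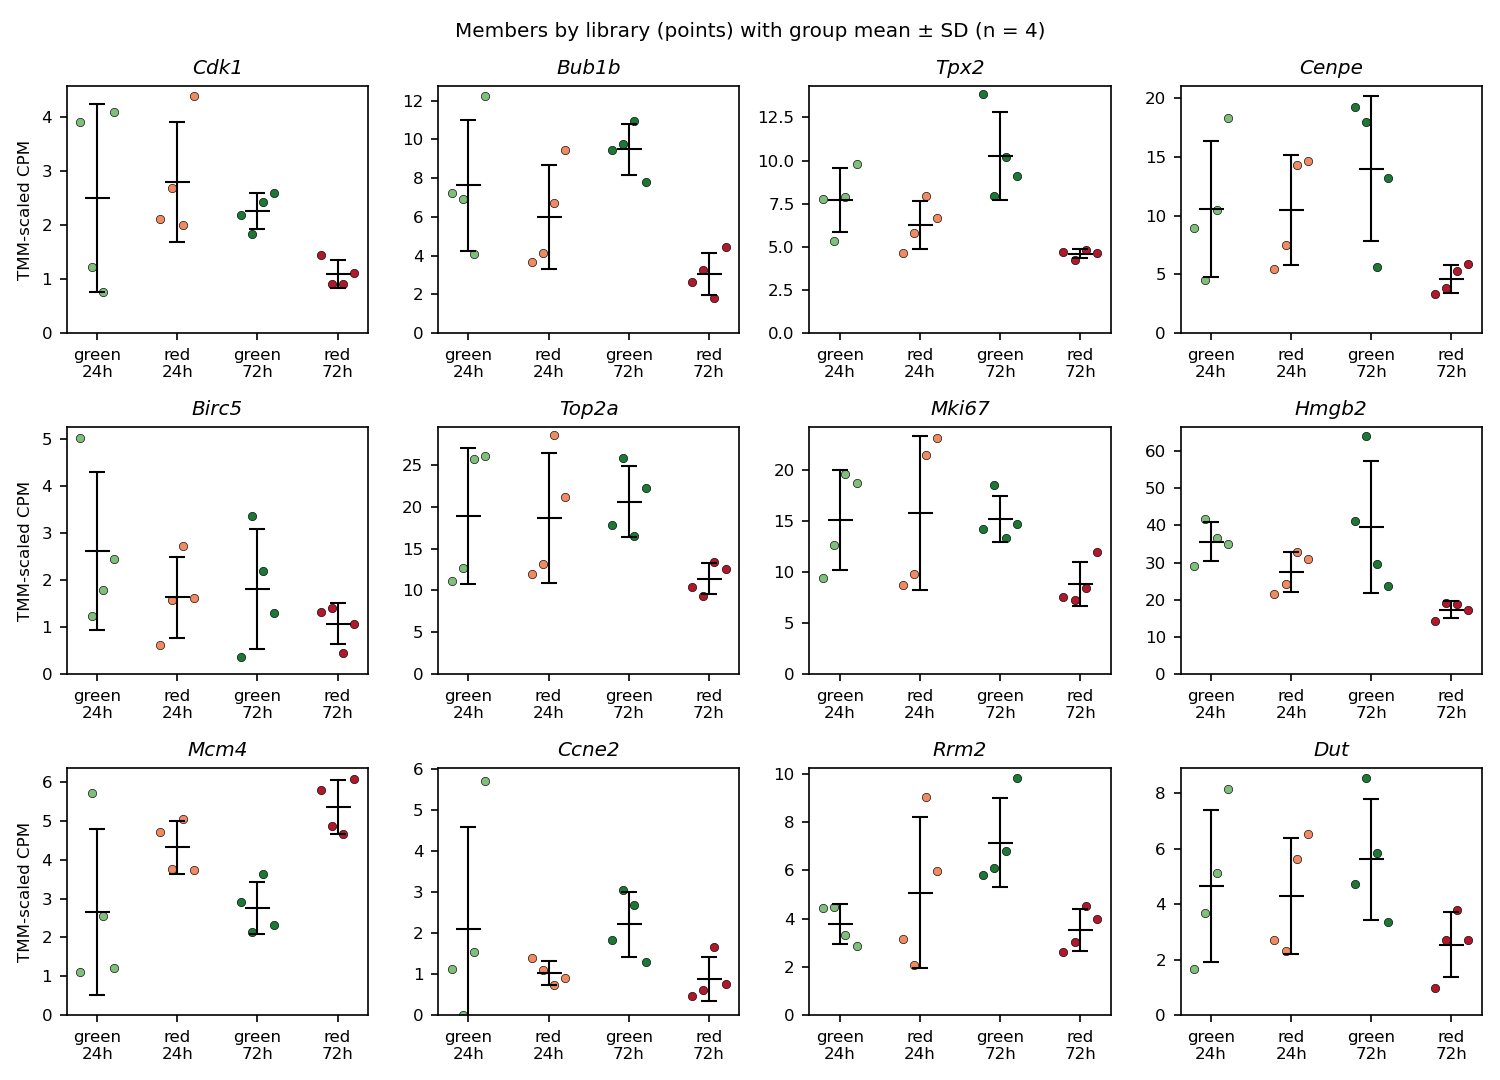
CPM in every library (y axis, TMM-scaled) of 12 members, 1 panel per gene, by group on the x axis, with points for libraries and bars for the mean ± SD of 4 libraries. In the panels of Bub1b, Tpx2, Hmgb2, Top2a, Mki67, Rrm2 and Cdk1 every Kaede-red 72h point lies below every Kaede-green 72h point, while in the panel of Mcm4 it lies above. Values are relative to the median gene, and under library size alone the log2 fold changes at 72h of Bub1b (0.54), Tpx2 (0.85), Hmgb2 (0.97), Top2a (1.13) and Rrm2 (0.88) were above 0.

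Origin licensing genes had a median log2 fold change of -0.03 at 72h, with 0 of 10 called (2 with an unadjusted p under 0.05 in edgeR's quasi-likelihood test). Of the 6 subunits of the MCM helicase, which unwinds DNA at the fork, 5 had log2 fold changes of 0.33 for Mcm2 (95% interval -0.34 to 0.99), -0.09 for Mcm3 (-0.64 to 0.47), 0.08 for Mcm5 (-0.59 to 0.75), -0.06 for Mcm6 (-0.70 to 0.58) and -0.27 for Mcm7 (-0.96 to 0.42). Mcm4 had 2.91, 2.13, 3.65 and 2.33 CPM among Kaede-green and 5.82, 4.88, 4.68 and 6.09 CPM among Kaede-red libraries. It was the single tested member whose Kaede-red libraries all lay above the Kaede-green ones, and it was not called by edgeR (0.96, SE 0.36, adjusted p = 0.0600). At 24h Mcm4 had 1.11, 5.72, 2.55 and 1.22 CPM among Kaede-green and 4.73, 3.76, 5.07 and 3.74 CPM among Kaede-red libraries, and Kaede-green replicate 2 was the highest of the 8.
Cdc6 and Cdt1, which load the helicase, had 0.27 and -0.0044 at 72h, and Gins2, part of the active helicase, -0.52. Ccne2, the cyclin E that opens S phase, went the other way from Mcm4. It had 1.82, 3.05, 2.67 and 1.30 CPM among Kaede-green and 0.468, 0.604, 1.66 and 0.756 CPM among Kaede-red libraries at 72h, where the groups overlapped (-1.48, SE 0.63, adjusted p = 0.107). At 24h it had 1.11, 0, 1.53 and 5.71 CPM among Kaede-green and 1.40, 1.09, 0.724 and 0.903 CPM among Kaede-red libraries.

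Of the DNA synthesis genes, 2 of 7 were called at 72h, both of which serve the nucleotide supply. Rrm2, the subunit of ribonucleotide reductase that limits its activity, had 5.83, 6.09, 6.81 and 9.85 CPM among Kaede-green and 2.62, 3.04, 4.53 and 3.99 CPM among Kaede-red libraries, without overlap (-1.05, SE 0.35, adjusted p = 0.0336). At 24h it had 4.46, 4.50, 3.32 and 2.86 CPM among Kaede-green and 3.15, 2.06, 9.05 and 6.00 CPM among Kaede-red libraries, where the Kaede-red libraries spanned the Kaede-green ones. The call at 72h was lost without Kaede-green 72h replicate 3 or 4 or Kaede-red 72h replicate 1 or 2, with adjusted p-values up to 0.134.
Dut, which keeps uracil out of DNA, had 4.74, 8.53, 5.83 and 3.37 CPM among Kaede-green and 0.976, 2.72, 3.77 and 2.69 CPM among Kaede-red libraries at 72h. Kaede-green replicate 4 lay within the Kaede-red range (-1.20, SE 0.42, adjusted p = 0.0447), and leaving out single libraries ended the call in 7 cases of 16, the highest adjusted p being 0.186 without Kaede-green 72h replicate 2 (the others were Kaede-green 72h replicates 1 and 3, Kaede-red 72h replicates 1, 2 and 4 and Kaede-red 24h replicate 3). At 24h Dut had 1.67, 3.68, 5.10 and 8.16 CPM among Kaede-green and 2.72, 2.31, 5.61 and 6.51 CPM among Kaede-red libraries, with full overlap.
The rest of this role was not called, with -1.15 for Tyms, which makes thymidylate, -0.51 for Rrm1, the large subunit of the reductase, -0.34 for Pcna, -0.28 for Uhrf1, which keeps methylation on new DNA, and 0.70 for Tk1, which salvages thymidine. The calls of Bub1b, Tpx2, Cenpe and Hmgb2 at 72h held whichever of the 16 libraries was left out, and the number of members called ranged from 4, without Kaede-red 72h replicate 1 or 2, to 10.

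Put by promoter class, the 22 tested members with both CHR and CCAAT box had a median log2 fold change of -0.78 at 72h (range -1.60 to 1.66, 5 called lower), and the 5 with an E2F core and no CHR, Mcm3, Mcm6, Mcm7, Cdc6 and Cdt1, had -0.06 (range -0.27 to 0.27, 0 called). At 24h these medians were 0.04 and 0.25. The classes follow the roles closely, so that they describe the same contrast, and neither was tested.

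At 24h, Kaede-red and Kaede-green cells did not differ in any member past the threshold. Of the 43 tested, 0 were called in edgeR's quasi-likelihood test or in DESeq2, while 7.51% of all genes were called (3.2% higher and 4.3% lower). An unadjusted p under 0.05 was found for 4 members, beside 2013 of the 9642 genes. The median log2 fold change was 0.04 beside 0.05 for all genes, with 20 members (46.5%) below 0 beside 46.6%. Gins2 came closest, with exons that overlap Gse1 and with 0 to 3 counts per Kaede-green and 8 to 33 per Kaede-red library, 0 to 0.766 and 0.971 to 2.89 CPM, which did not overlap (2.28, SE 0.84, adjusted p = 0.0988). It was the 1 member without overlap at 24h, beside 7.07% of all genes higher and 5.44% lower without overlap. The 6 MCM genes had values from 0.18 for Mcm7 to 0.87 for Mcm2, all above 0 and none called. The median standard error of a member's log2 fold change was 0.48. At 24h the sums of the 28 mitotic members were lower in replicates 1 and 2 than in replicates 3 and 4 of each colour. They were 118 and 124 against 140 and 172 CPM in Kaede-green and 84.1 and 99.4 against 162 and 164 CPM in Kaede-red libraries. The fit did not model this split within the groups. Scaling by library size alone called 39 members higher in Kaede-red cells, with a members' median of 2.17 beside 2.33 for all genes.

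Over both times together, Kaede-red cells had less Hmgb2, Bub1b, Tpx2 and Cenpe RNA and more Mcm4 RNA than Kaede-green cells, relative to the median gene. The log2 fold change was -0.79 for Hmgb2 (SE 0.17, adjusted p = 0.000686), -0.94 for Bub1b (SE 0.24, adjusted p = 0.00447), -0.73 for Tpx2 (SE 0.19, adjusted p = 0.00467), -0.81 for Cenpe (SE 0.25, adjusted p = 0.0204) and 0.81 for Mcm4 (SE 0.26, adjusted p = 0.0271). The first 4 were also called at 72h. These 5 of 43 members (11.6%) stand beside 20.2% of all genes, of which 9.96% were called higher and 10.3% lower, so that members were called no more often than genes at large. No member kept all 8 Kaede-red apart from all 8 Kaede-green libraries, which 1.19% of all genes did upwards and 1.74% downwards. The members' folds leaned down, with 31 members (72.1%) below 0 beside 45.6% and a median of -0.35 beside 0.06. The call of Cenpe did not hold when Kaede-green 24h replicate 4 was dropped (adjusted p = 0.0714), and that of Mcm4 when any of 7 libraries was left out, the adjusted p then lying between 0.0516 and 0.0632 (Kaede-green 24h replicates 1, 3 and 4, Kaede-red 24h replicate 1, Kaede-green 72h replicate 2 and Kaede-red 72h replicates 1 and 4). Ccne2 was just short of the threshold (-1.24, SE 0.46, adjusted p = 0.0545), and passed without Kaede-green 24h replicate 1 or 2, Kaede-green 72h replicate 4 or Kaede-red 72h replicate 3. Top2a, not called (-0.46, SE 0.19, adjusted p = 0.0888), passed without Kaede-green 24h replicate 1 or 2 or Kaede-red 24h replicate 3. Scaling by library size alone turned the 4 falls into rises and called 41 members higher, and with the Rn45s share as a covariate 0 members were called and the lean was gone, with a members' median of 0.08 beside 0.07 for all genes. Within each time that share separated the colours, so that this fit cannot tell it from colour.

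Within Kaede-red cells, 3 mitotic members, Cenpe, Cdk1 and Mki67, fell from 24h to 72h relative to the median gene. The log2 fold change from 24h to 72h was -1.20 for Cenpe (SE 0.34, adjusted p = 0.0237), -1.35 for Cdk1 (SE 0.43, adjusted p = 0.0437) and -0.83 for Mki67 (SE 0.27, adjusted p = 0.0476). From the values given above, the Kaede-red libraries of the 2 times did not overlap for Cdk1, and they overlapped for Cenpe through 24h replicate 1 and for Mki67 through 72h replicate 4. This comparison shares the Kaede-red 72h libraries with the comparison of colours at 72h. It also sets tumours of different mice against each other. All were lit on the same day of growth, so that the 72h tumours were older at harvest. Time in the tumour and age of the tumour cannot be told apart. The 3 calls were 6.98% of the members, beside 8.67% of all genes called, 4.91% higher and 3.76% lower. All 14 spindle and chromosome genes were below 0, with a median of -0.69, while the 6 MCM genes had a median of 0.02 and the regulators -0.32. Over the 43 members the median was -0.41 and 32 (74.4%) were below 0, beside -0.01 and 50.8% of all genes. Hmgb2 was close to the threshold (-0.66, SE 0.23, adjusted p = 0.0648) and its Kaede-red libraries did not overlap between the times, which 3 of the 43 members showed for a fall beside 8.76% of all genes. These calls depended on single libraries. Without Kaede-red 24h replicate 3 or 4, or Kaede-red 72h replicate 1 or 2, 0 members were called, and without Kaede-red 24h replicate 1, 7 were. Cdk1 lost its call without any 1 of the 7 Kaede-red libraries other than 24h replicate 1. Under library size alone 0 were called and the members' median was 0.21, that of all genes 0.42. With the Rn45s share as a covariate 0 were called as well (median -0.18 beside 0.01), and without a filter or with a mean count of at least 5, 1 was.

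Within Kaede-green cells, no member changed detectably between 24h and 72h. Of the 43 tested, 0 were called by edgeR's quasi-likelihood test and 0 by DESeq2, and 0 of the 9642 genes were called. An unadjusted p under 0.05 was found for 2 members, beside 835 of the 9642 genes. The median log2 fold change was 0.22 beside 0.03 for all genes, and 14 members (32.6%) were below 0 beside 47.1%. Rrm2 was higher in every 72h than in every 24h Kaede-green library, without being called (0.95, SE 0.41, adjusted p = 0.508), as the 1 such member beside 1.9% of all genes.

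The change of the red-green difference between 24h and 72h was below 0 in 37 of the 43 members (86.0%), beside 53.5% of all genes, with a median of -0.60 beside -0.07. It passed for 0 of the 43 (edgeR's quasi-likelihood test and DESeq2 alike), with 0.767% of all genes called (0.436% higher and 0.332% lower). An unadjusted p under 0.05 was found for 8 members, beside 1471 of the 9642 genes. The difference between the times is therefore not shown for any single member. Cenpe had -1.58 (adjusted p = 0.110), Rrm2 -1.46 (adjusted p = 0.167) and Bub1b -1.27 (adjusted p = 0.177). All 14 spindle and chromosome genes were below 0 here.

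**Figure D3:**
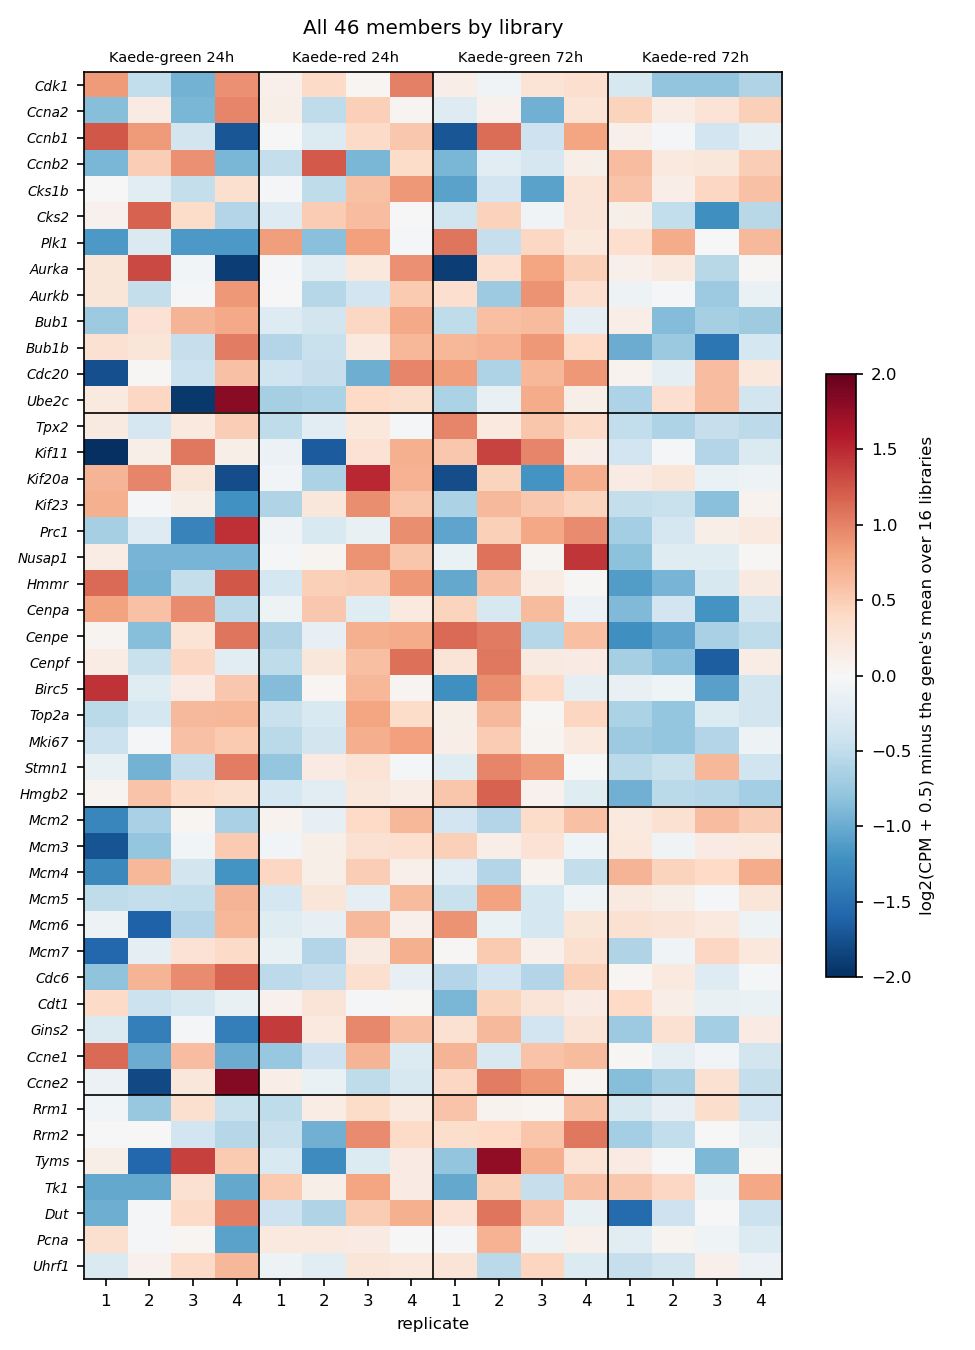
Log2(CPM + 0.5) of each of the 46 members (rows, grouped by role) in each of the 16 libraries (columns, by group) minus the mean of that gene, with colours limited to the range from -2 to 2. The Kaede-red 72h columns are below the gene mean for most spindle and chromosome genes and near or above it for most MCM genes, on the TMM scale, on which library size alone would raise all Kaede-red columns.

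Summed over genes, the 28 mitotic members came to 118 to 172 CPM in Kaede-green and 84.1 to 164 CPM in Kaede-red libraries at 24h, and to 137 to 200 and 71.4 to 89.5 CPM at 72h. The means were 138 ± 24.2, 127 ± 41.5, 155 ± 30.1 and 79.3 ± 7.81 CPM (SD, n = 4), and only at 72h did the colours not overlap. The 11 licensing members came to 23.4 to 48.97, 35.8 to 47.1, 39.4 to 43.3 and 40.3 to 42.3 CPM in the same order, and their means at 72h were 41.2 ± 1.60 CPM for Kaede-green and 41.5 ± 0.83 CPM for Kaede-red (SD, n = 4). A ratio within a library needs no scaling between libraries. The counts of the 28 mitotic members divided by those of the 11 licensing members gave 5.02, 4.89, 4.05 and 3.51 in Kaede-green and 2.28, 2.78, 3.48 and 3.48 in Kaede-red libraries at 24h. At 72h the ratio was 3.54, 4.62, 3.48 and 3.35 in Kaede-green and 1.72, 1.87, 1.91 and 2.14 in Kaede-red cells. Each Kaede-red 72h library was thus below every other library, and the Kaede-red 24h libraries lay below the Kaede-green 24h ones by a small margin. The order of the groups was the same for the ratio to the 6 MCM genes, with 4.84 to 8.79, 3.14 to 4.45, 4.27 to 6.43 and 2.19 to 2.60. Without the 3 mitotic members of highest level it ran from 1.67 to 2.90, 1.13 to 1.88, 1.75 to 2.11 and 0.949 to 1.14, and here the lowest Kaede-red 24h library fell within the Kaede-red 72h range. These ratios were chosen after the values were seen and are given with no test.

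**Figure D4:**
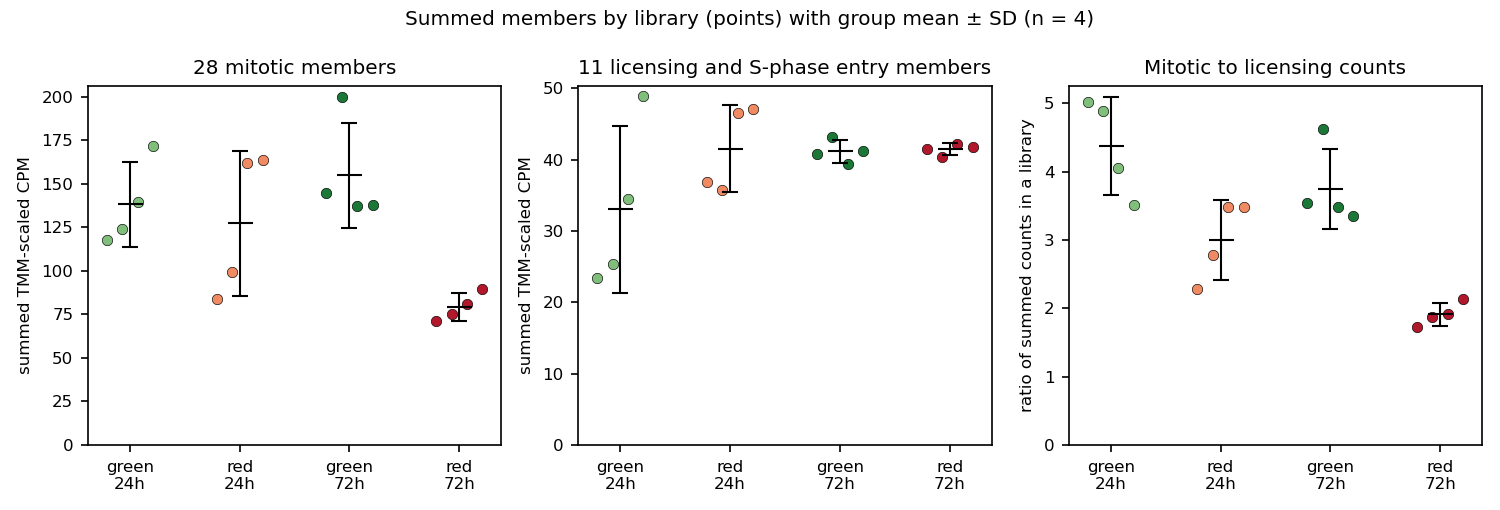
Summed CPM of the 28 mitotic members and of the 11 licensing members, and the ratio of their counts (y axes), for each library by group, with points for libraries and bars for the mean ± SD of 4 libraries. The Kaede-red 72h libraries are lowest in the mitotic sum (71.4 to 89.5 CPM) and in the ratio (1.72 to 2.14), while the licensing sums of both colours at 72h lie between 39.4 and 43.3 CPM. The sums are TMM-scaled and would rise in Kaede-red libraries under library size alone, whereas the ratio does not depend on scaling.

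Other genes of the cell cycle were read from 4 further lists of 124 genes. Of 40 other mitotic genes, 32 were tested, and at 72h 5 were called lower and 0 higher among them, with 31 of 32 below 0 and a median of -0.79, against 8.76% of all genes called lower and a median of 0.03. The 5 were Lmnb1, Smc4, Kif22 and, named after their values were seen, the kinetochore gene Ndc80 (-1.85) and the condensin gene Ncaph (-1.53). Over both times 4 were called lower. They were Lmnb1, a lamin of the nuclear envelope (-0.82, adjusted p = 6.59e-05), Sgol2a, a guardian of centromere cohesion (-1.36, adjusted p = 0.0102), the condensin gene Smc4 (-0.60, adjusted p = 0.0371) and the kinesin gene Kif22 (-1.15, adjusted p = 0.0429). Lmnb1 was also the 1 call of this list at 24h (-0.85, adjusted p = 0.00685). Of 46 other replication genes, 40 were tested, with 0 called higher and 2 lower at 72h, Chaf1a (-1.35) and, named after its values were seen, Atad2 (-0.90), and a median of -0.43, against the same 8.76%. At 72h, 32 of these 40 were below 0, beside 48.1% of all genes. Over both times, where 9.96% of all genes were called higher and 10.3% lower, Pola2 of the primase complex was higher (1.05, adjusted p = 0.0441), and the chromatin genes Chaf1a (-1.08, adjusted p = 0.00281) and Hells (-0.80, adjusted p = 0.0327) were lower. At 24h 0 of these 40 were called.

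Genes that act before and against the cycle moved in both directions. Of 20 tested genes of cycle entry, Ccnd1, Ccnd2 and Myc were called higher in Kaede-red cells over both times and Lin54, a DNA-binding part of the MuvB complex, lower (-0.87, adjusted p = 0.00220). These calls stand beside 20.2% of all genes called over both times, 9.96% higher and 10.3% lower, and were about as frequent as among genes at large. Ccnd1, the D cyclin induced by growth factors, had 19.7, 11.6, 15.1 and 17.4 CPM among Kaede-green and 36.04, 30.1, 31.5 and 30.8 CPM among Kaede-red libraries at 72h, and 18.4, 17.98, 9.19 and 15.5 and 20.5, 20.6, 16.8 and 17.3 CPM at 24h. Its Kaede-red libraries stood apart at 72h and not at 24h (over both times 0.68, SE 0.15, adjusted p = 0.00163). Ccnd2, another D cyclin, had 10.6, 8.22, 10.9 and 12.7 CPM among Kaede-green and 30.7, 24.3, 21.3 and 26.3 CPM among Kaede-red libraries at 72h, and 8.91, 11.03, 12.5 and 16.7 and 20.9, 19.2, 21.5 and 19.7 CPM at 24h, without overlap at either time (0.99, SE 0.15, adjusted p = 1.13e-05). Myc had 0.557 to 2.45 CPM among Kaede-green and 3.80 to 4.55 CPM among Kaede-red libraries at 24h, and 2.55 to 5.19 and 3.01 to 5.25 CPM at 72h (0.75, SE 0.27, adjusted p = 0.0472). Foxm1, the factor that joins MuvB in G2, was at -0.21 at 72h (adjusted p = 0.844), and Mybl2, which joins it in S phase and is named here after its values were seen, at -1.15 (adjusted p = 0.0324).
Of 13 tested inhibitors, 4 were called lower and 1 higher in Kaede-red cells over both times, beside 10.3% of all genes called lower and 9.96% higher. Cdkn2d, an inhibitor of the kinases that partner D cyclins, had 14.5, 12.3, 9.70 and 7.75 CPM among Kaede-green and 3.77, 3.16, 2.17 and 1.68 CPM among Kaede-red libraries at 24h, and 6.56, 9.14, 7.05 and 8.56 and 2.26, 3.07, 4.23 and 2.90 CPM at 72h. All 8 Kaede-red libraries were below all 8 Kaede-green ones (-1.69, SE 0.22, adjusted p = 5.50e-07). Cdkn1b, an inhibitor of the kinases that partner cyclin E, had 22.2, 15.5, 16.8 and 13.7 CPM among Kaede-green and 7.34, 9.51, 7.70 and 7.19 CPM among Kaede-red libraries at 72h, without overlap (-0.85, SE 0.17, adjusted p = 0.000416 over both times). The antiproliferative genes Btg1 and Btg2 were lower as well (-0.72, adjusted p = 0.000164, and -0.84, adjusted p = 9.18e-06). The gene called higher was Rb1, the retinoblastoma gene, which restrains E2F (0.86, SE 0.22, adjusted p = 0.00486), with 2.55 to 7.29 CPM among Kaede-green and 6.94 to 11.2 CPM among Kaede-red libraries at 72h. It is named after its values were seen. Each fall named in these lists is smaller in size than the 2.20 by which library size alone raised the median gene. Between 24h and 72h in Kaede-green cells, 0 genes of the 4 lists were called.

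**Figure D5:**
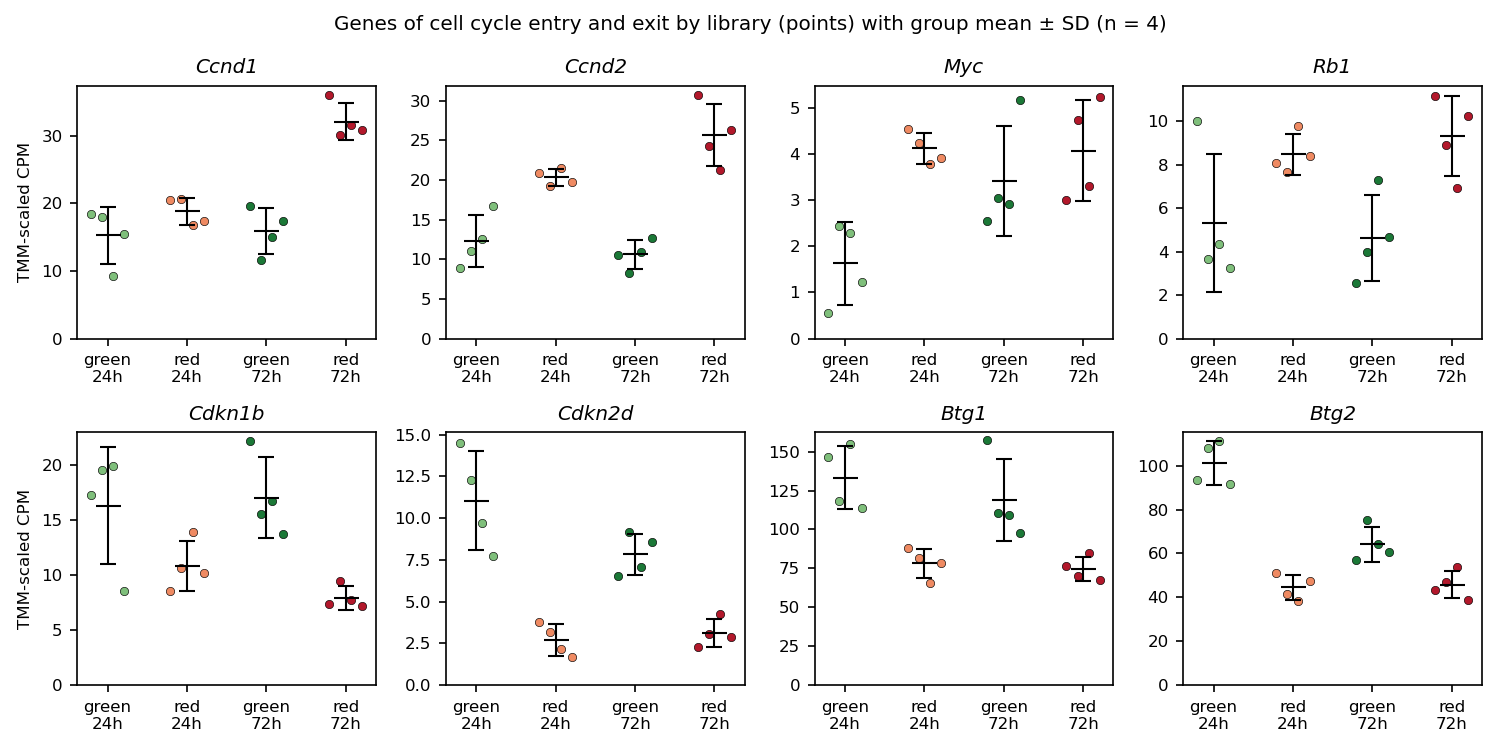
CPM in every library (y axis, TMM-scaled) of the cycle entry genes Ccnd1, Ccnd2 and Myc and of the inhibitors Rb1, Cdkn1b, Cdkn2d, Btg1 and Btg2, 1 panel per gene, by group on the x axis, with points for libraries and bars for the mean ± SD of 4 libraries. Every Kaede-red point of Cdkn2d lies below every Kaede-green point, and the Ccnd1 points of Kaede-red 72h stand above those of the other groups. These directions are relative to the median gene, which library size alone raises by 2.20 in Kaede-red cells, more than any fall shown here over both times.

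Markers of cell types moved with the colours too, and their part in the results above was not tested. The 10 macrophage markers summed to 388 to 568 CPM in Kaede-green and 543 to 828 CPM in Kaede-red libraries at 24h, and to 430 to 512 and 910 to 1034 CPM at 72h, with 8 of 10 called higher in Kaede-red cells over both times. The 5 monocyte markers, led by Plac8, summed to 941 to 1498 and 469 to 567 CPM at 24h and to 636 to 1078 and 470 to 679 CPM at 72h, with 3 of 5 called lower. At 72h, 1 of these 5 was called lower, and the Kaede-green and Kaede-red sums overlapped. The 8 fibroblast markers summed to 43.6 to 57.1 and 20.6 to 40.0 CPM at 24h and to 45.99 to 53.7 and 12.7 to 19.9 CPM at 72h, and 4 of the 5 tested were called lower at 72h, where their sum, like the mitotic sum, was lower in every Kaede-red than in every Kaede-green library. Lum was at 0 in Kaede-green 24h, and no other gene of this list was at 0 in a whole group. Markers of myeloid precursors, which divide in the marrow, summed to 50.2 to 139, 20.7 to 33.3, 48.8 to 86.8 and 19.9 to 71.9 CPM in the order of the groups, most of it from Chil3. Elane was at 0 in every library but those of Kaede-red 72h, where it had at most 2 counts, and Mpo had at most 3 counts in any library. The 7 neutrophil markers counted summed to 18.8 to 22.9 CPM in Kaede-red 72h and to 9.40 to 14.5 CPM in the other groups, and 1 of the 2 tested was called higher at 72h. Csf3r made up most of this sum, with 72h means of 16.3 CPM in Kaede-red and 7.4 CPM in Kaede-green. By mean CPM at 72h, 4 of the 7 were higher in Kaede-red and 3 were lower. Among the lower were S100a8 (mean 0.17 CPM, beside 1.1 CPM in Kaede-green) and S100a9 (0.32 beside 1.15 CPM). The 5 endothelial markers summed to 10.03 to 16.3 CPM in Kaede-green and 17.7 to 22.5 CPM in Kaede-red libraries at 24h, and to 9.75 to 19.2 and 21.9 to 36.6 CPM at 72h, with 2 of the 3 tested called higher at 72h. Kdr and Pecam1 made up most of the endothelial sum, while Cdh5 was lower in Kaede-red at 72h (mean 0.91 CPM, beside 2.27 CPM in Kaede-green) and Tek and Cldn5 were near 0. The neutrophil and endothelial sums were higher in every Kaede-red than in every Kaede-green library at 72h. Markers of dendritic cells summed to at most 5.08 CPM, those of T and NK cells to at most 6.12 CPM and those of tumour epithelium to at most 3.67 CPM, with Epcam at 0 to 4 counts per library. The median GC content of spindle and chromosome members was 43.4% and that of licensing members 51.9%, and over all genes the quartile of lowest GC content had a median log2 fold change of -0.13 at 72h and the quartile of highest GC content 0.18. With offsets for GC content and length, chosen after seeing the data, 6 members were called lower and 1, Mcm4, higher at 72h, and Rrm2 (adjusted p = 0.062) and Dut (adjusted p = 0.06) were no longer called.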

How the data were processed

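RNA of sorted CD11b+ cells was made into libraries with a stranded total RNA pico-input kit from 5 ng of RNA. Per the labels and the study's methods, the authors trimmed reads with Trim Galore, removed the first 3 bases of read 1, checked them with FastQC, used HISAT2 to align them to mm10, and assigned them to genes by featureCounts. The deposited values are raw counts of reads per gene for 24421 genes in 16 libraries, with no normalization. Strand and multimapping settings are not given in the sources used here. The members and lists were chosen with earlier results of these data known.

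Counts were tested with edgeR 4.0.16 in R 4.3.3. Genes kept by filterByExpr (9642) entered 1 fit of all 16 libraries with TMM factors and 1 mean per group. Contrasts were taken with the quasi-likelihood test, and p-values were adjusted over all genes by the Benjamini-Hochberg method. SE were derived from the F statistic. Exon lengths and GC content came from GENCODE (23334 genes matched) and promoters from RefSeq. The test was tried on simulated data. Total counts of 3216858 to 15423085 per library, of which Rn45s took most, limit the precision, and the p-values measure the spread between tumours of a group. Within a group, no library was a copy of another (chi-square per gene 2.91 to 82.1 over the 24 replicate pairs). Same-numbered Kaede-green and Kaede-red libraries were not treated as pairs.

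Members given for every library were the 2 called most often in each role, Mki67, Top2a and Birc5, and every member called where at most 5 were. Of each pathway list, at most 4 called genes are named over both times, those of lowest adjusted p. Genes named beyond this are marked. The alternatives were DESeq2 1.42.0, RLE factors, library size only, no filter, a mean count of at least 5, at least 10 counts in every library, only the groups compared, a replicate block, Rn45s left out or used as a covariate, thinning to equal depth, and leaving out each library in turn. Library size outside Rn45s, Lars2 and Mir6236, and offsets for GC content and length (96.1% of tested genes had both), were added after seeing the data.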

Additional observations from a re-analysis of the deposited data

How the results depend on the processing

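Counts of members called depended most on scaling and on Rn45s. With library size only, which moves the median of all genes, 41 members over both times were called, 39 at 24h and 25 at 72h, each of them higher in Kaede-red cells, and 0 between the times in Kaede-red cells. With the Rn45s share as covariate, 0 were called over both times, 0 at 72h and 0 between the times in Kaede-red cells. Within each time the share separated the colours, so that for the comparisons of colour this fit cannot tell it from colour. Thinning to equal depth outside Rn45s (468092 counts) left 22 members to test, of which 5 were called over both times and 6 at 72h. At 72h DESeq2 called 13 members, 12 lower and Mcm4 higher. Between the times in Kaede-red cells, DESeq2 called 6, RLE factors 6, no filter 1, a mean count of at least 5 1, at least 10 counts in every library 5 of the 7 tested, and only the groups compared 7. The change of the difference with time had 1 call without a filter. The cause of these shifts was not tested, and the share of all genes called under each alternative is not given here or above. These counts therefore do not set the members apart from genes at large.

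Named members that reversed with library size only had over both times values of 1.72 for Cdk1, 1.17 for Bub1b, 1.40 for Tpx2, 1.33 for Cenpe, 1.47 for Birc5, 1.63 for Top2a, 1.72 for Mki67, 1.38 for Hmgb2, 1.03 for Ccne2, 1.66 for Rrm2 and 1.45 for Dut. At 72h they had 0.54 for Bub1b, 0.85 for Tpx2, 0.50 for Cenpe, 1.13 for Top2a, 0.97 for Hmgb2, 0.88 for Rrm2 and 0.96 for Dut. With the Rn45s share as covariate, Top2a (0.076), Mki67 (0.12), Rrm2 (0.10) and Dut (0.20) reversed over both times. Over the alternatives, the members' median minus that of all genes ran from -1.15 to -0.22 at 72h, from -0.15 to 0.32 at 24h and from -0.67 to 0.017 over both times, where the value above 0 came with the Rn45s covariate.

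With each of the 16 libraries left out in turn, 4 to 8 members were called over both times, 0 to 0 at 24h, 4 to 10 at 72h, 0 to 0 between the times in Kaede-green cells, 0 to 7 between the times in Kaede-red cells, and 0 to 1 for the interaction of colour and time. The highest count over both times came without Kaede-green 24h replicate 2, and the 1 call for the change with time without Kaede-green 24h replicate 4, a library without which 6 were called between the times in Kaede-red cells. Of the named members' values in these fits, 306 kept their side of the threshold, 39 lost it, 7 gained it and 0 reversed.

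Same-numbered Kaede-green and Kaede-red libraries had correlated deviations of -0.02 to 0.15, above 0.1 in 1 of 8 pairs, so that the numbers were not taken to pair the libraries. At 24h all 4 were above 0 (0.049 to 0.15), although not every library correlated best with its own number. Numbers 1 and 2 of either colour also correlated above 0 with each other at 24h, as did 3 and 4. Every pair across these sets was below 0 (-0.13 to -0.027). The Rn45s share of Kaede-red 24h split likewise (66.2 and 68.2 against 83.1 and 84.9%), and that of Kaede-green 24h overlapped. The main fit did not model this split, and its source was not tested. With the replicate block, 6 members were called over both times, 0 at 24h, 9 at 72h, 0 between the times in Kaede-green cells, 3 between them in Kaede-red cells and 0 for the interaction.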
